A study of Mus musculus with 8 samples.

Results

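Fatty acid synthesis in mouse liver was followed through 10 genes: Srebf1, Thrsp, Acly, Me1, Acaca, Acacb, Fasn, Elovl6, Scd1 and Scd2. They were taken by symbol, as every non-control probe whose accession maps to 1 of these names, which gave 16 probes among the 55681 on the array and 10 of the 20280 genes with a named probe. A probe was tested where some group had both of its arrays well above background. All 16 probes passed, so all 10 genes were among the 14574 genes tested. Thrsp and the dimmer probe of Acacb met that condition only through the adult samples. Of the dim probes of Acaca, 1 met it only through the fetal samples and 1 only through the wild-type fetal sample. A difference between groups was therefore built into the inclusion of Thrsp and of these dim probes.

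The protein of Srebf1, SREBP-1, is a transcription factor made as a precursor in the endoplasmic reticulum membrane, cut in the Golgi and then carried into the nucleus, where it turns on genes of fatty acid and triglyceride synthesis. In liver its SREBP-1c form is known to rise with insulin and feeding and to be low in fasting. The pathway itself cuts citrate to acetyl-CoA, carboxylates acetyl-CoA to malonyl-CoA, assembles palmitate from these units with NADPH as the reductant, and then elongates and desaturates the product.

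Of the 4 groups, KO Ad was liver RNA of adult male mice without Btg2 (TIS21-knockout in the labels), 10 weeks old and fasted for 20 h, and WT Ad was liver RNA of wild-type males of the same age and fast. KO Fetal was RNA pooled from livers of knockout embryos at embryonic day 13.5 and WT Fetal the same from wild-type embryos, each pool holding both sexes. The series title gives the mice as C57BL/6J. Btg2 encodes a protein that restrains growth and promotes mRNA deadenylation. How the allele was made, and how many adult mice stood behind a sample, are not given in the sources used here. Both adult samples were fasted, so no fed liver was compared. Each group was 1 RNA sample read on 2 arrays, its technical duplicates. The p-values therefore measure array error between 4 RNA samples, not variation between animals.

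Levels are signals divided by the 75th percentile of their own array, called scaled signals, and differences are on the log2 scale, given with the standard error (SE) of the limma fit. A gene is said to have risen or fallen when its adjusted p was under 0.05 and its difference at least 2-fold. Btg2 was not well above background on any of the 4 knockout arrays. It was at least 7.62-fold lower in KO Ad than in WT Ad (adjusted p = 7.9e-07) and at least 98.1-fold lower in KO Fetal than in WT Fetal (adjusted p = 1.4e-06). Adult arrays had a 75th percentile of 132 to 171 in processed signal and fetal arrays one of 278 to 334, and 38.5% to 42.3% of adult and 48.7% to 61.1% of fetal probes were well above background. The number of arrays limits the precision. Hepatocyte markers were 8 of 8 higher in adult than in fetal liver in both genotypes, and 8 of 8 erythroid markers were lower. Over all genes 25.8% to 27.4% were called higher and 27.5% to 27.6% lower.

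In adult liver 5 of the 10 genes rose in the knockout sample and 0 fell. These were the regulators Srebf1 (5.26-fold) and Thrsp (5.55-fold), Fasn, the synthase itself (2.23-fold), and the desaturase genes Scd1 (2.75-fold) and Scd2 (3.84-fold). Over all genes tested, 7.48% were called in this comparison, 4.95% as higher and 2.53% as lower. The median difference of the 10 genes was 0.80, against -0.10 over all genes. The other 5 genes also had an adjusted p under 0.05 but differed by less than 2-fold. For each of these 5 the adjusted p did not stay under 0.05 in every other processing setting. Acly and Acaca were higher and Acacb lower, Elovl6 was lower by an amount whose sign changed with median scaling, and the probes of Me1 disagreed. Because these are bulk samples, a change in the cells that make a transcript and a change in RNA per cell cannot be told apart.

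**Figure D1:**
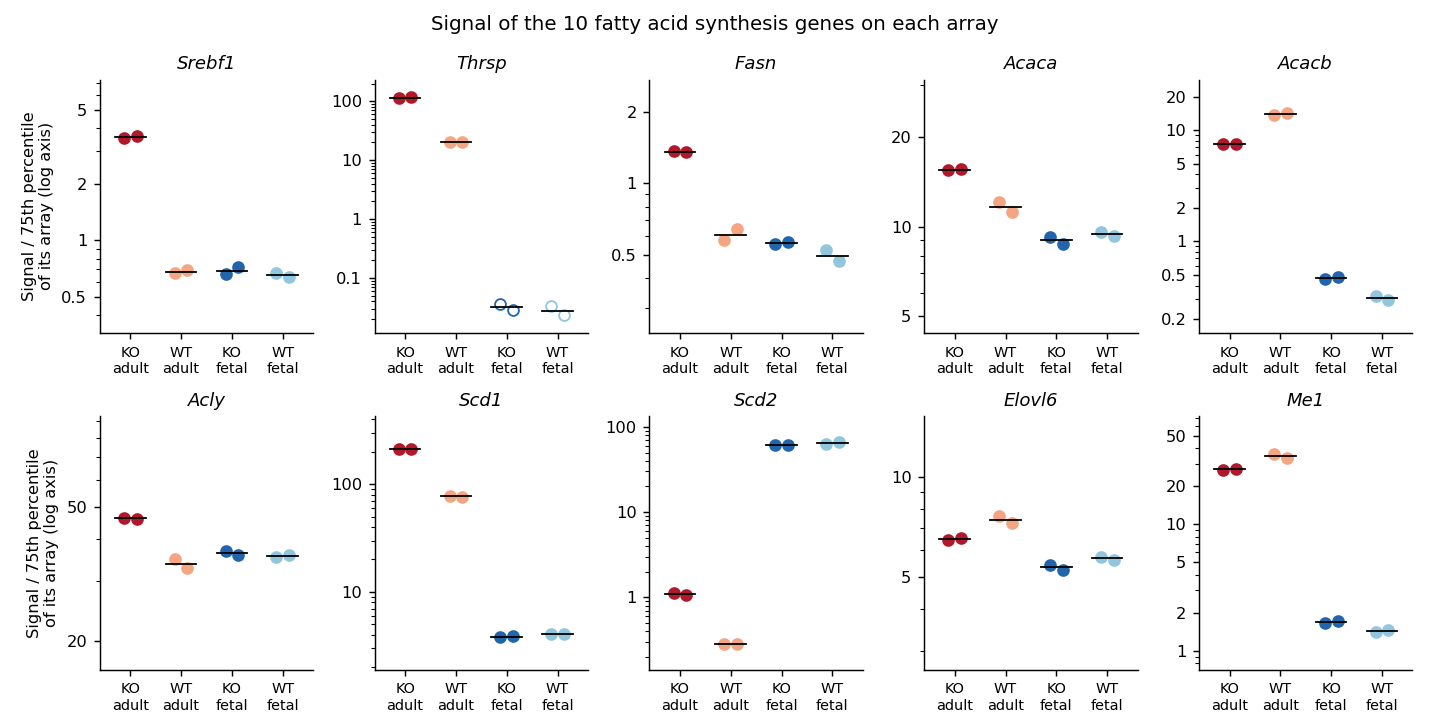
Scaled signal (signal divided by the 75th percentile of its array, log axis) of the 10 genes, each by its brightest tested probe, with 1 point per array, a line at the group mean and hollow points where neither array of the group was well above background. Srebf1 stood at 3.53 and 3.62 in KO Ad and between 0.640 and 0.718 on the 6 other arrays, whereas Scd2 was brightest in the fetal samples, at 60.96 to 66.3.

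Srebf1 was read by 1 probe. It had scaled signals of 3.53 and 3.62 in KO Ad, against 0.666 and 0.692 in WT Ad. KO Fetal gave 0.661 and 0.718, against 0.669 and 0.640 in WT Fetal. The knockout adult sample thus stood alone above 3 samples whose arrays overlapped. The adult difference was 2.40 ± 0.07 (SE, adjusted p = 4.4e-07), with a 95% interval of 2.23 to 2.56. In the fetal samples the difference was 0.07 ± 0.07 (adjusted p = 0.503; 95% interval -0.09 to 0.24). The fetal interval lay below the adult one, and both cover array error only, not variation between animals. Which of the SREBP-1a and SREBP-1c transcripts, which begin at different starts of the gene, the probe reads was not tested.

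Srebf1 lies on chromosome 11 and has 3 start windows in the RefSeq promoter table (build GRCm38.p6, each 250 bases before to 50 bases after an annotated start, minus strand). They are printed because Srebf1 is the regulator of the group and rose in KO Ad, and because the table does not say which start gives which SREBP-1 form. Capitals mark CCAAT or its complement ATTGG, the core bound by the NF-Y factor, a known partner of SREBP.
Srebf1, chr11:60210422-60210721: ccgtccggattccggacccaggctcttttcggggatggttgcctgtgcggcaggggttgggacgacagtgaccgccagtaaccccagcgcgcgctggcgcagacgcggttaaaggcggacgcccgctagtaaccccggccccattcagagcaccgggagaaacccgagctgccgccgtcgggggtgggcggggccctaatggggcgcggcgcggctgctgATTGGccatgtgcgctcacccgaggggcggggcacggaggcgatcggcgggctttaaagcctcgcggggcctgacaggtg
Srebf1, chr11:60220578-60220877: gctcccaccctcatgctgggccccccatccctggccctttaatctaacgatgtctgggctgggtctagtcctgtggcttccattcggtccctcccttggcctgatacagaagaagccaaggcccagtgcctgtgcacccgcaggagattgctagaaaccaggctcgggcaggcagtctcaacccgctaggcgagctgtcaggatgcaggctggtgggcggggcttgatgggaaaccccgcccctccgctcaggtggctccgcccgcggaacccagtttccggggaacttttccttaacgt
Srebf1, chr11:60222532-60222831: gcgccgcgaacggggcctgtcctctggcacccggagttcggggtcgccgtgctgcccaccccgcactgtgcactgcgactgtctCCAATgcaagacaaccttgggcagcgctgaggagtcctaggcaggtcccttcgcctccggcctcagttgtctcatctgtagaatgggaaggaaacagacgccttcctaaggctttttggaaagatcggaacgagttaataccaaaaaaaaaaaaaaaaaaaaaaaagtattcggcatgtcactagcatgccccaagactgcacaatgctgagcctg
The first window holds 1 CCAAT core at position -30 from the start on the annotated strand or its complement, the second none and the third 1 at -166. Across all 10 genes, 8 matched the table, with 11 windows, and Scd1 and Scd2 did not match. Searched on both strands, CCAAT was in 7 of these 11 windows, of 6 of the 8 genes, and in 37.4% of all 32851 windows. The GC box GGGCGG was in 4 windows of 3 genes, against 35.7% of all windows. The sterol element TCACNCCAC, which marks some SREBP targets, and the E-box CACGTG, which SREBP-1 and ChREBP-type factors can bind, were in 0 of the 11, against 1.24% and 7.15% of all windows. None of these 4 motifs contains another, and the counts describe letters only.

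Thrsp encodes Spot 14, a small nuclear and cytosolic protein that responds to thyroid hormone and carbohydrate and promotes lipogenesis. Its scaled signals were 113 and 116 in KO Ad, against 20.7 and 20.6 in WT Ad. In the fetal samples no array read it well above background, with 0.036 and 0.029 in KO Fetal against 0.034 and 0.023 in WT Fetal. Adult arrays of the 2 genotypes did not overlap, and the difference was 2.47 ± 0.17 (SE, adjusted p = 1.9e-05). The fetal genotypes, both at background, give no measured difference, so no adult minus fetal value of the knockout difference is given for Thrsp. Its promoter window (chromosome 7, minus strand, GRCm38.p6), printed for its CCAAT pair at -79 and -52, with the same capitals, is as follows.
Thrsp, chr7:97417501-97417800: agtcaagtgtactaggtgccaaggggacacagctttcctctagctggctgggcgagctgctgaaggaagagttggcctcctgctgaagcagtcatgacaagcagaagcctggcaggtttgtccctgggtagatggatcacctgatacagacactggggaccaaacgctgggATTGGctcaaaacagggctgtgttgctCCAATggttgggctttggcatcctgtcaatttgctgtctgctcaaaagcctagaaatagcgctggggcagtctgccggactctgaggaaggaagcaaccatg

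Acly encodes ATP citrate lyase, which makes cytosolic acetyl-CoA from citrate. By its brighter probe it had scaled signals of 46.3 and 45.9 in KO Ad, against 34.8 and 32.8 in WT Ad. Fetal signals were 36.9 and 36.0 in KO Fetal, against 35.5 and 35.9 in WT Fetal. KO Ad was the highest sample and WT Ad the lowest, with both fetal samples between them. The adult difference of 0.45 ± 0.03 (1.36-fold, adjusted p = 2.5e-05) was below the 2-fold minimum. A second, dim probe of Acly differed by 0.14 ± 0.15 between the adult samples (adjusted p = 0.50) and by 0.31 ± 0.15 between the fetal samples (adjusted p = 0.218). The dim probe therefore did not carry the adult difference of the bright one beyond its error.

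Me1 encodes cytosolic malic enzyme, a source of NADPH, and its 3 probes did not give 1 direction. The brightest probe read 27.1 and 27.4 in KO Ad, against 35.7 and 33.4 in WT Ad, a difference of -0.34 ± 0.04 (adjusted p = 2.6e-04). A second probe read 34.1 and 35.2 in KO Ad, against 28.9 and 26.3 in WT Ad, a difference of 0.33 ± 0.05 (adjusted p = 0.00141). The third read 19.4 and 20.4 in KO Ad, against 21.9 and 21.4 in WT Ad (-0.12 ± 0.04, adjusted p = 0.0459). In each case the arrays of the 2 genotypes did not overlap, so the probes disagreed beyond array error and no direction is given for Me1 in adult liver. In fetal liver all 3 probes were higher in the knockout, by 0.23 ± 0.04, 0.10 ± 0.05 and 0.14 ± 0.04 (adjusted p = 0.00777, 0.248 and 0.0579), where the brightest read 1.66 and 1.72 in KO Fetal, against 1.41 and 1.46 in WT Fetal.

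Acaca and Acacb encode the 2 acetyl-CoA carboxylases. ACC1, from Acaca, makes the malonyl-CoA used for synthesis, and ACC2, from Acacb, sits at the mitochondrion, where its malonyl-CoA restrains carnitine palmitoyltransferase 1. Acaca had scaled signals of 15.5 and 15.6 in KO Ad, against 12.1 and 11.2 in WT Ad (0.41 ± 0.04, 1.33-fold, adjusted p = 1.7e-04). Fetal signals were 9.26 and 8.78 in KO Fetal, against 9.61 and 9.29 in WT Fetal (-0.07 ± 0.04, adjusted p = 0.333). The adult genotypes did not overlap, and the adult difference was under 2-fold. Its 2 other probes were dim, and neither was well above background on any WT Ad array, so they bear little on the adult comparison. In fetal liver the second probe of Acaca differed by 0.39 ± 0.17 (adjusted p = 0.174), and the third was well above background only in WT Fetal.

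Acacb went the other way in adult liver. By its brighter probe it had scaled signals of 7.54 and 7.53 in KO Ad, against 13.6 and 14.2 in WT Ad. Fetal signals were 0.461 and 0.479 in KO Fetal, against 0.325 and 0.299 in WT Fetal. The genotypes did not overlap at either stage, with the knockout lower in adult and higher in fetal liver. The adult difference was -0.88 ± 0.05 (1.85-fold lower, adjusted p = 1.2e-05) and the fetal one 0.59 ± 0.05 (1.51-fold higher, adjusted p = 9.5e-04), both under the 2-fold minimum. The second probe of Acacb read 0.489 and 0.492 in KO Ad, against 0.654 and 0.739 in WT Ad (-0.50 ± 0.60, adjusted p = 0.531). That difference has the same sign and a large error, and the probe was at background in KO Fetal.

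Fasn encodes fatty acid synthase, which builds palmitate from malonyl-CoA. It had scaled signals of 1.36 on both KO Ad arrays, against 0.581 and 0.641 in WT Ad. Fetal signals were 0.560 and 0.570 in KO Fetal, against 0.526 and 0.472 in WT Fetal. As for Srebf1, KO Ad was alone above the other samples. The adult difference was 1.15 ± 0.09 (adjusted p = 3.5e-05), and it fell under the 2-fold minimum, at 0.75, with another background correction (normexp). The fetal difference was 0.18 ± 0.09 (adjusted p = 0.204; 95% interval -0.03 to 0.39). The Fasn window (chromosome 11, minus strand, GRCm38.p6) is shown because it holds 3 CCAAT cores, at -90, -62 and -59, the last pair overlapping.
Fasn, chr11:120824498-120824797: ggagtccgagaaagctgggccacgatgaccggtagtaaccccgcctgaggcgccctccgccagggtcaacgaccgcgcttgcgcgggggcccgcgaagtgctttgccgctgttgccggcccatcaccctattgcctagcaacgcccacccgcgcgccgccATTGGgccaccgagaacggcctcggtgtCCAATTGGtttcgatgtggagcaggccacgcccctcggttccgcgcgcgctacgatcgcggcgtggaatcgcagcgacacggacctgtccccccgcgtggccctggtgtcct

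Elovl6 encodes the elongase that lengthens palmitate. Its scaled signals were 6.43 and 6.55 in KO Ad, against 7.59 and 7.24 in WT Ad, and 5.44 and 5.25 in KO Fetal, against 5.74 and 5.62 in WT Fetal. Knockout arrays were the lower ones at each stage, by small amounts. The adult difference of -0.19 ± 0.04 (1.14-fold, adjusted p = 0.00267) changed sign, to 0.01, when arrays were scaled to their medians, and the fetal difference was -0.09 ± 0.04 (adjusted p = 0.130).

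Scd1 and Scd2 encode stearoyl-CoA desaturases, which place a double bond in palmitate and stearate. Scd1 is known as the main form of adult mouse liver. Its scaled signals were 213 and 211 in KO Ad, against 77.8 and 76.5 in WT Ad. The fetal samples gave 3.78 and 3.90 in KO Fetal, against 4.03 on both WT Fetal arrays. The adult genotypes were far apart and the fetal ones close, with differences of 1.46 ± 0.03 (adjusted p = 5.9e-08) and -0.07 ± 0.03 (adjusted p = 0.0937; 95% interval -0.13 to -0.01).

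Scd2 had scaled signals of 1.12 and 1.07 in KO Ad, against 0.286 and 0.283 in WT Ad. In the fetal samples it gave 60.96 and 61.5 in KO Fetal, against 63.0 and 66.3 in WT Fetal. The knockout was thus higher in adult liver, while both adult samples stayed far below both fetal samples. The adult difference was 1.94 ± 0.04 (adjusted p = 7.3e-08) and fell under the 2-fold minimum, at 0.88, with normexp, and the fetal difference was -0.08 ± 0.04 (adjusted p = 0.179; 95% interval -0.16 to 0.01). Scd2 was well above background on both WT Ad arrays but dim there, at processed signals of 38.1 and 37.4. The second Acaca probe, at 28.3 and 23.2 on those arrays, was not well above background. Scd1 and Scd2 lie near each other on chromosome 19, with Mir5114 and Scd4 between them, and are known to have similar coding sequences. Whether either probe also binds the other transcript was not tested.

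**Figure D2:**
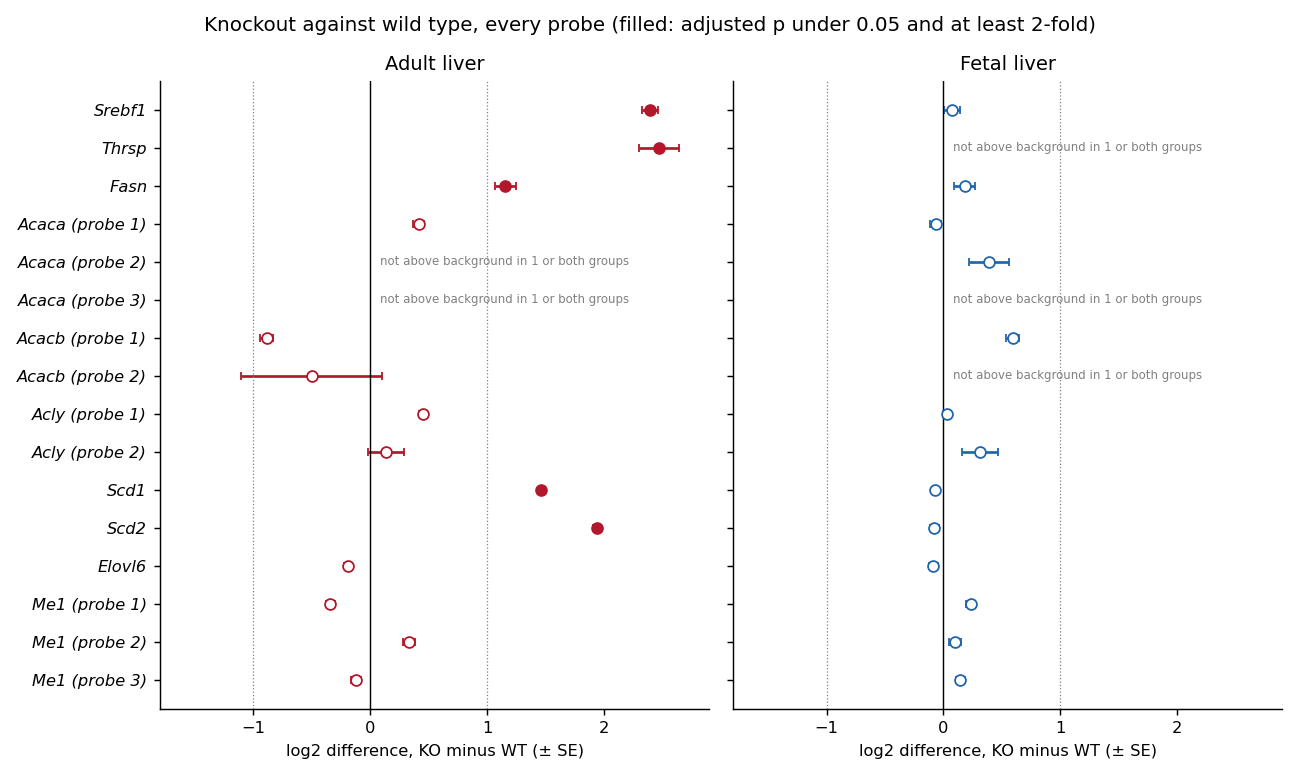
Log2 difference, knockout minus wild type, of each of the 16 probes with its SE, in adult liver (left) and fetal liver (right), filled where the adjusted p was under 0.05 and the difference at least 2-fold (dotted lines), and with a note where a sample was not well above background. Filled points are Srebf1, Thrsp, Fasn, Scd1 and Scd2 in adult liver, none is filled in fetal liver, and the 3 Me1 probes fall on both sides of 0 in adult liver.

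In fetal liver 0 of the 10 genes were called by limma, while 4 had an unadjusted p under 0.05 and 2 an adjusted p under 0.05 (Acacb and Me1). For neither of the 2 did the adjusted p stay under 0.05 in every other processing setting. Over all genes, 1.93% were called in the fetal comparison, 0.501% as higher and 1.43% as lower. The median difference of the 10 genes was 0.05, against 0.02 over all genes. The plot of every probe shows this contrast between the stages, with the fetal values within 1 log2 unit of 0 wherever both samples were measured.

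The adult and fetal knockout differences were then compared directly, as the adult difference minus the fetal one. Srebf1 differed by 2.32 ± 0.10 (adjusted p = 4.6e-06), Scd2 by 2.02 ± 0.05 (adjusted p = 7.2e-07) and Scd1 by 1.53 ± 0.04 (adjusted p = 5.3e-07), each larger in adult liver. With normexp the value of Scd2 was 1.05. Acacb differed by -1.48 ± 0.08 (adjusted p = 1.1e-05), the opposite way, a call that was lost when its 2 probes were averaged (-1.13). Leaving aside Thrsp, which fetal liver did not measure, these 4 of 9 genes passed both thresholds, against 9.75% over all genes (6.03% higher and 3.72% lower). Fasn, at 0.97 ± 0.13 (1.96-fold, adjusted p = 6.0e-04), fell just short of 2-fold, and Acaca (0.48 ± 0.06) and Acly (0.42 ± 0.05) were smaller. Elovl6 differed by -0.11 ± 0.05 (adjusted p = 0.119). The 3 probes of Me1 again disagreed, at -0.57 ± 0.06, 0.23 ± 0.07 and -0.27 ± 0.06.

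The stage comparisons share their samples with the knockout comparisons and are given side by side. Adult samples were fasted males, whereas the fetal pools held both sexes and their labels give no fast. Stage therefore cannot be told apart from fasting, sex or the mix of cells. In wild-type liver 4 of the 10 genes were higher in adult and 1 lower, against 27.4% and 27.6% of all genes (55.0% in either direction). In knockout liver 6 were higher in adult and 1 lower, against 25.8% and 27.5% (53.3% in either direction). The shares of the 10 genes called, 70% in knockout and 50% in wild type, are read against those high backgrounds. Acacb was 44.6-fold higher in WT Ad than in WT Fetal (5.48 ± 0.05) and 16.0-fold higher in KO Ad than in KO Fetal (4.003 ± 0.05). Scd1 was 19.2-fold higher in the adult wild type (4.26 ± 0.03) and 55.3-fold higher in the adult knockout (5.79 ± 0.03). All 3 probes of Me1 were higher in adult liver, by 4.01 to 5.26 in knockout and by 4.44 to 5.02 in wild type.

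Scd2 ran against the others. It was 227-fold lower in WT Ad than in WT Fetal (-7.83 ± 0.04) and 56.1-fold lower in KO Ad than in KO Fetal (-5.81 ± 0.04). The 227-fold value rests on the dim WT Ad signal given above. Thrsp, at background in fetal liver, was at least 449.8-fold higher in WT Ad than in WT Fetal and at least 1784-fold higher in KO Ad than in KO Fetal. The desaturase genes thus took opposite sides of the stage comparison, Scd1 brighter in fasted adult liver and Scd2 in fetal liver, in both genotypes.

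Srebf1 and Fasn passed 2-fold between the stages in knockout and not in wild type. Srebf1 was 5.19-fold higher in KO Ad than in KO Fetal (2.38 ± 0.07), whereas WT Ad and WT Fetal differed by 0.05 ± 0.07 (adjusted p = 0.485). Fasn was 2.41-fold higher in KO Ad than in KO Fetal (1.27 ± 0.09, under 2-fold at 0.92 with normexp and 0.72 with median scaling), and the wild-type stages differed by 0.29 ± 0.09 (adjusted p = 0.0168). The adult minus fetal differences of the 2 genotypes differ by the same amounts as given above for the knockout differences. Acly, Acaca and Elovl6 stayed within 2-fold between the stages, by 0.34, 0.79 and 0.28 in knockout and by -0.08, 0.30 and 0.39 in wild type. The scaling bears on these small values: the median over all genes in the wild-type stage comparison was -0.00 as reported and -0.72 with median scaling, which gave Srebf1 a wild-type difference of -0.66 and Fasn one of -0.42.

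**Figure D3:**
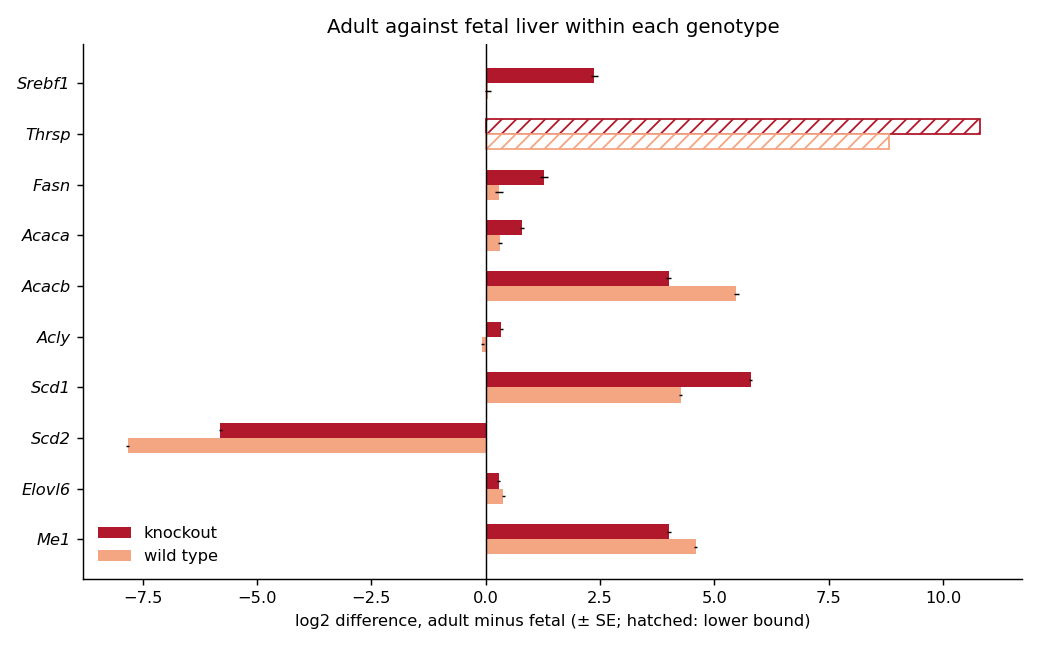
Log2 difference, adult minus fetal, of the 10 genes in knockout and wild-type liver, with the SE as error bars and hatched bars for lower bounds where fetal signal was at background. Acacb, Scd1, Me1 and Thrsp lie on the adult side in both genotypes, Scd2 lies on the fetal side, and Srebf1 leaves 0 only in the knockout (2.38 against 0.05 in wild type).

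Other genes of the pathway were read from 6 lists, none of which holds any of the 10. The adult knockout counts of each list are read against 7.48% called over all genes, 4.95% as higher and 2.53% as lower. Of 6 genes of SREBP processing and partners, limma called 0 in adult knockout liver (3 had an unadjusted p under 0.05), with a median of -0.12. Insig1, which encodes an anchor that holds SREBP in the endoplasmic reticulum and is itself an SREBP target, came nearest. It read 3.84 and 3.86 in KO Ad, against 2.19 and 2.23 in WT Ad (0.80 ± 0.06, adjusted p = 1.9e-05). The differences of Scap, the SREBP escort, Insig2 and Srebf2 were -0.17 ± 0.04, 0.01 ± 0.04 and -0.07 ± 0.06. Srebf2 encodes SREBP-2, the paralogue that mainly serves sterol synthesis, so the 2 SREBP genes differed unequally between the adult samples.

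Of 9 other regulators of lipogenic transcription, limma called 0 (7 with an unadjusted p under 0.05), with a median of -0.14. Nr1h3, which encodes the oxysterol receptor LXR-alpha, read 45.4 and 46.8 in KO Ad, against 56.3 and 55.8 in WT Ad (-0.28 ± 0.04, adjusted p = 6.0e-04). Mlxipl, which encodes the carbohydrate-responsive factor ChREBP, differed by 0.10 ± 0.04 (adjusted p = 0.0642).

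Among 8 genes of carbon and NADPH supply, 1 rose and 0 fell, with a median of 0.33. G6pdx, which encodes the first enzyme of the pentose phosphate pathway, read 2.19 and 2.07 in KO Ad, against 0.973 and 0.953 in WT Ad (1.14 ± 0.04, adjusted p = 5.8e-07). The genotypes did not overlap, and the difference dropped to 0.90, under 2-fold, with normexp.

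Of 13 genes of elongation and further desaturation, 0 rose and 2 fell, with a median of 0.16. Elovl5, an elongase gene for polyunsaturated chains, read 32.4 and 32.9 in KO Ad, against 93.0 and 87.0 in WT Ad (-1.46 ± 0.03, adjusted p = 1.8e-07). Hacd3, a dehydratase gene of chain elongation, fell by 1.10 ± 0.05 on the log2 scale (adjusted p = 3.7e-06). It missed 2-fold with normexp (-0.99) and with each other scaling tried, the deposited value table included (-0.90 to -0.96). Fads1, a desaturase gene for polyunsaturated chains, was 0.91 ± 0.03 higher, under 2-fold.

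Of 13 genes of glycerolipid assembly, 1 rose and 1 fell, with a median of -0.23. Lpin1, which encodes a phosphatidate phosphatase, read 47.0 and 46.8 in KO Ad, against 22.05 and 20.98 in WT Ad (1.13 ± 0.05, adjusted p = 2.0e-06). Mogat1, a monoacylglycerol acyltransferase gene, fell by 1.89 ± 0.59 (adjusted p = 0.0286), a call lost without any 1 of the 4 adult arrays (-1.81 to -1.98) and with no intensity trend. Of 10 genes that control the carboxylases, the synthase or the use of malonyl-CoA, 0 rose and 1 fell, with a median of -0.17. This was Cpt1a, which encodes the carnitine palmitoyltransferase that malonyl-CoA inhibits. It read 62.0 and 63.2 in KO Ad, against 126.6 and 124.2 in WT Ad (-1.003 ± 0.02, adjusted p = 2.0e-07), at the 2-fold edge, and it missed 2-fold with each other scaling tried (-0.80 to -0.87). Mid1ip1, a homologue of Thrsp that helps acetyl-CoA carboxylase polymerise, was 0.61 ± 0.04 higher (adjusted p = 9.0e-06), under 2-fold.

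**Figure D4:**
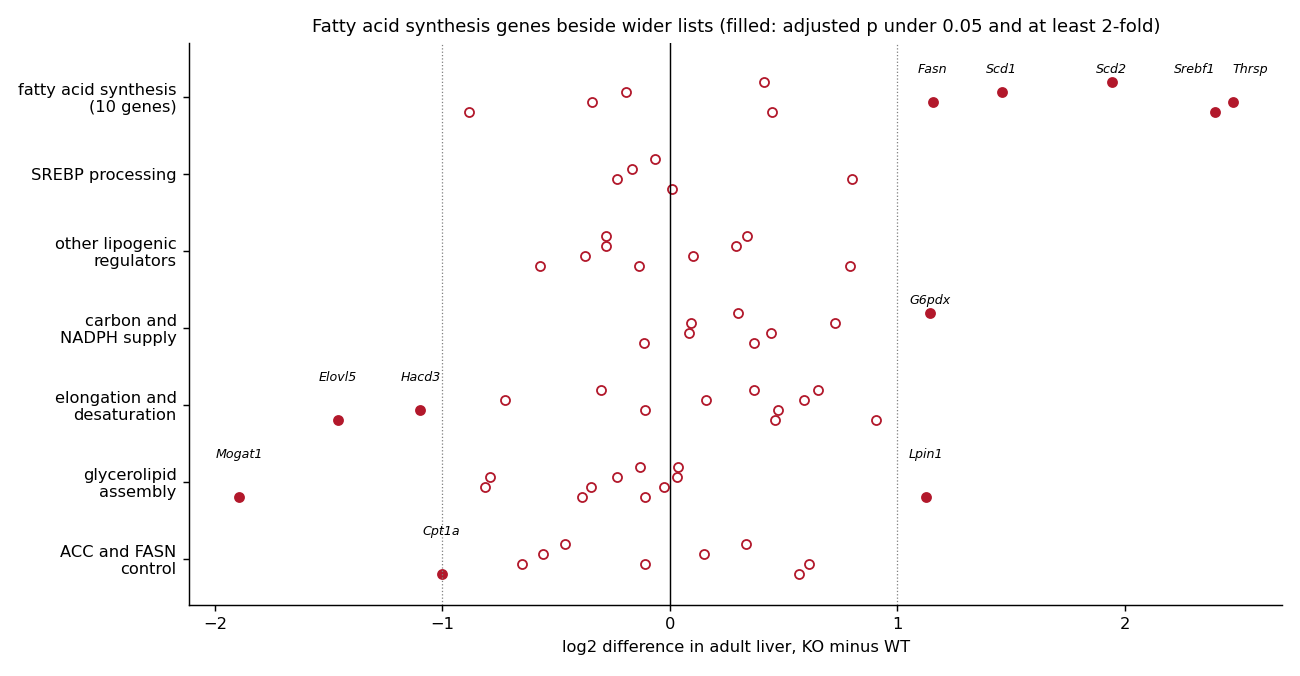
Log2 difference in adult liver, knockout minus wild type, of the 10 fatty acid synthesis genes (top) and of the tested genes of 6 wider pathway lists, with 1 point per gene, filled and named where called and with 4 genes that were dim in 1 or both adult samples left out. The 5 called genes of the top line lie between 1.15 and 2.47, and the wider lists add G6pdx and Lpin1 above 1 and Elovl5, Hacd3, Mogat1 and Cpt1a at or below -1.

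In the fetal knockout comparison limma called 0 genes in each of the 6 lists, against 1.93% of all genes tested. The medians of the lists were -0.07 to 0.03. Between 1 and 8 genes of a list had an unadjusted p under 0.05 there. Tested as the adult minus the fetal knockout difference, Lpin1 (1.56 ± 0.07), Fads1 (1.22 ± 0.04) and G6pdx (1.15 ± 0.05) were higher. Elovl5 (-1.47 ± 0.05) and Trib3 (-1.26 ± 0.07), whose protein is a pseudokinase that can promote carboxylase breakdown, were lower. The call of Trib3 was lost with normexp (-0.97) and with median scaling (-1.09), and that of G6pdx with normexp (0.98). Over all genes 9.75% were called.

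Between the stages 53.3% of all genes were called in knockout and 55.0% in wild type, and the counts of each list are read against these shares. Of 6 SREBP processing genes 3 were higher in adult and 1 lower, in knockout as in wild type. Insig2 led, at 5.16 in knockout and 5.34 in wild type, and Srebf2 was the lower one, at -1.04 in knockout and -1.02 in wild type. The knockout call of Srebf2 was lost with normexp (-0.91) and with its probes averaged (-0.35), and the wild-type call without WT Ad replicate 1 (-0.98) or WT Fetal replicate 1 (-0.999). Among the higher ones, the wild-type call of Insig1 was lost with normexp (0.93), median scaling (0.62) and the detected-probe percentile (0.89), and that of Scap with median scaling (0.98 in knockout and 0.99 in wild type). For the other regulators, 7 of 9 were higher in knockout and 6 of 9 in wild type, with 0 lower. Mlxipl was 3.81 higher in knockout and 3.75 in wild type, and Nr0b2, a nuclear corepressor gene, was at least 46.0-fold higher in knockout and 5.01 (log2) higher in wild type. Ppargc1b, a coactivator gene, was at least 7.09-fold higher in knockout and 3.46 (log2) higher in wild type.

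For carbon and NADPH supply 5 of 8 genes were higher in adult and 2 lower in each genotype. Idh1 (3.07 in knockout and 2.72 in wild type) and Mdh1 (2.31 in knockout and 2.47 in wild type) led, both dehydrogenase genes. Next came Acss2, an acetyl-CoA synthetase gene, at 2.23 in knockout and 1.88 in wild type, and Aco1, a cytosolic aconitase gene, at 1.91 in knockout and 1.998 in wild type. The 2 pentose phosphate genes were lower in adult liver, G6pdx at -3.10 in knockout and -4.25 in wild type, and Pgd at -1.14 in knockout and -1.21 in wild type. NADPH supply genes were therefore split between stages, Me1 and Idh1 brighter in adult liver and G6pdx and Pgd in fetal liver.

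For elongation and desaturation 8 of 13 genes were higher in adult knockout and 7 in adult wild type, with 2 lower in each. Elovl3 was at least 712-fold higher in knockout and at least 635-fold higher in wild type. Elovl5 was 2.76 higher in knockout and 4.23 in wild type, and Elovl2 3.15 in knockout and 3.76 in wild type, while Fads2 was 2.96 higher in knockout and 2.70 in wild type. Fads3 was lower, at -2.55 in knockout and -3.00 in wild type, and Elovl7 was at least 3.03-fold lower in knockout and at least 2.88-fold lower in wild type, a call lost in both with normexp (-0.85 in each). Elovl2 and Elovl3 encode elongases of very long chains, and Fads2 a desaturase of polyunsaturated ones. For glycerolipid assembly 10 of 13 were higher in adult and 2 lower in each genotype. Lpin1 was 6.52 higher in knockout and 4.96 in wild type. Mogat1 was at least 4.37-fold higher in knockout and 26.8-fold (4.74 on the log2 scale) in wild type. Only 1 of the 2 WT Fetal arrays read Mogat1 well above background, so the wild-type value rests on signal near background. Of 3 other acyltransferase genes, Agpat3 was 2.81 higher in knockout and 3.58 in wild type, Agpat2 3.601 in knockout and 3.34 in wild type, and Dgat2 3.47 in knockout and 3.54 in wild type. Mogat2 (-6.33 in knockout and -6.48 in wild type) and Agpat1 (-2.29 in knockout and -1.43 in wild type) were brighter in fetal liver. Of the carboxylase and synthase control genes, 5 of 10 were higher in adult in each genotype, led by Cpt1a (4.88 in knockout and 5.74 in wild type) and Prkaa2 (4.38 in knockout and 5.01 in wild type), the gene of an AMP-activated kinase catalytic subunit, with Mlycd at 2.98 in knockout and 3.58 in wild type and Trib3 at 2.33 in knockout and 3.59 in wild type. Of the other AMP-activated kinase subunit genes, Prkag1 was called lower in knockout only (-1.18 in knockout and -0.98 in wild type), and Prkab1 (-0.61 in knockout and -1.60 in wild type) and Prkaa1 (-0.96 in knockout and -1.36 in wild type) in wild type only. Each of these 3 genes differed between the genotypes by less than 2-fold in its stage difference. Brca1 was dim in both adult samples, its call as lower was lost with normexp (-0.13 in knockout and -0.07 in wild type), and its bound in wild type was under 2-fold.

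Markers of some other cells differed between the adult samples, where 4.95% of all genes were called higher in the knockout and 2.53% lower. All 10 of 10 macrophage and Kupffer cell markers rose, with a median of 3.02, against 0 of 8 hepatocyte markers called in limma (6 with an unadjusted p under 0.05). The summed macrophage signal was 337 to 344 in KO Ad, against 55.7 to 58.7 in WT Ad, and 111 to 112 in KO Fetal, against 88.2 to 88.3 in WT Fetal, with Timd4 not well above background in WT Ad. The summed hepatocyte signal was 3411 to 3438 in KO Ad, against 3542 to 3598 in WT Ad. Of the adipocyte markers, which matter because fat cells also make Srebf1, Thrsp, Fasn and Scd1, 1 of 4 tested rose (Car3, which skeletal muscle and liver make as well). Lep and Plin1 were not well above background on any array and Adipoq on 1 of the 4 adult arrays. Fabp4 averaged 11.1 in KO Ad and 6.59 in WT Ad (0.76, adjusted p = 7.0e-06 in limma, under 2-fold), and Cfd 1.33 in KO Ad and 2.84 in WT Ad. The brighter of 2 Retn probes averaged 0.176 in KO Ad and 0.0759 in WT Ad and was well above background on 1 KO Ad array and no WT Ad array. The adipocyte sum, 581 to 607 in KO Ad against 113 to 115 in WT Ad, was nearly all Car3, which averaged 581 in KO Ad and 104 in WT Ad. Of the mesenchymal markers 3 of 7 rose, of the endothelial 0 of 5 in limma (5 with an unadjusted p under 0.05), and of the intestinal 3 of 5 rose and 2 fell. The summed signals of these lists were lower in KO Ad. The mesenchymal sum was 91.1 to 97.0 in KO Ad, against 117 to 120 in WT Ad. The endothelial sum was 29.1 to 31.1 in KO Ad, against 34.1 to 34.9 in WT Ad, and the intestinal sum 95.6 to 96.8, against 248 to 250. Of the other lists, erythroid markers had 0 of 8 called (4 with an unadjusted p under 0.05), pancreatic markers 0 of 2 (0), hepatoblast markers 1 of 4 lower and neural markers 1 of 4 higher. In fetal knockout liver limma called 0 markers in each list, with 0 to 6 at an unadjusted p under 0.05. Over all genes 1.93% were called there. The part of the macrophage, mesenchymal and intestinal signals in the differences of Srebf1 and the other genes was not tested.

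The tested genes whose 4 group means, each centred on its own mean, lay nearest to those of Srebf1 were Mefv, Gm14548, Pilrb2, Serpina9 and Fcgr4. Their root mean square distances over the 4 RNA samples were 0.13, 0.18, 0.19, 0.20 and 0.23 log2 units, against 0.49 for Fasn, the nearest of the other members, which ranked 87th. Mefv, Pilrb2 and Serpina9 were not well above background in WT Ad. Serpina9 was also not well above background in WT Fetal, and was so on only 1 KO Fetal array. Fcgr4, an Fc receptor gene of myeloid cells, was 1.77 ± 0.05 higher in KO Ad than in WT Ad. With 4 samples such likeness describes only a shape, high in KO Ad and low in the other samples.

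Among the genes that rose in adult knockout liver, Srebf1 lay between 1.82 and 2.59 and Thrsp between 2.45 and 2.67 over the settings tried, above 2-fold in each that gave a value. Thrsp has none under the filter that asks for signal well above background on all 8 arrays. Scd1 stayed between 1.45 and 1.77. Fasn and Scd2 passed 2-fold under every setting except normexp, which gave 0.75 and 0.88. Scaling also moved the median over all genes in this comparison, which was -0.10 as reported and 0.10 with median scaling, so differences of this size carry no settled sign. Acacb stayed between -0.91 and -0.69, below 2-fold in each.

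**Figure D5:**
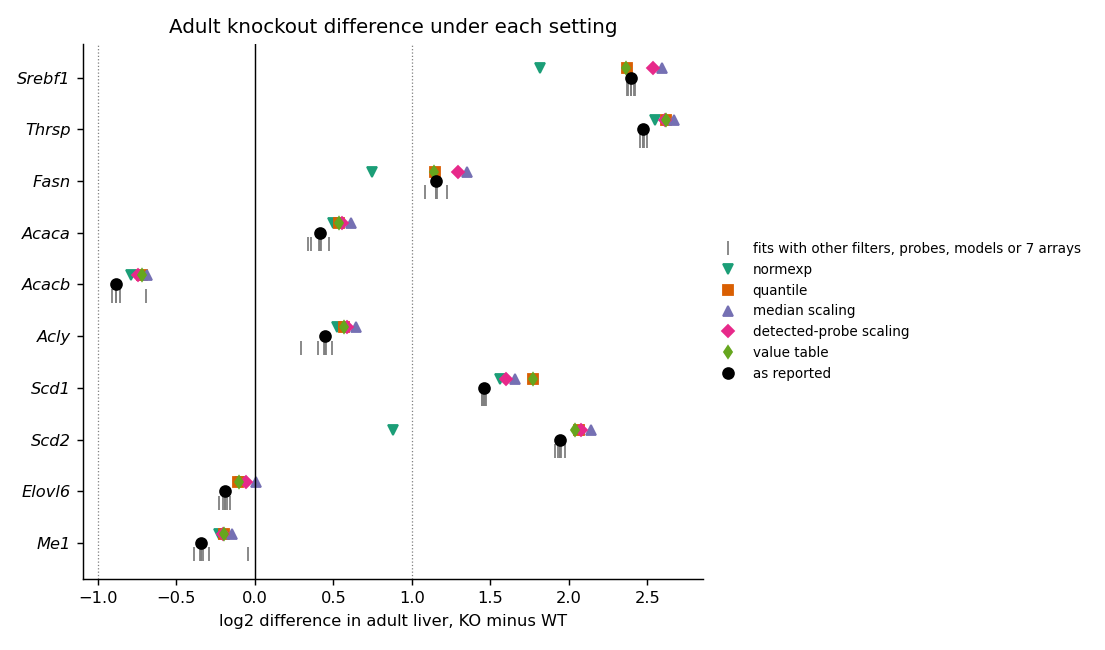
Log2 difference in adult liver, knockout minus wild type, of the 10 genes as reported (black points) and under the alternative processing settings (coloured symbols for background correction and scaling, grey ticks for filters, probes, variance models and fits of 7 arrays). Srebf1, Thrsp and Scd1 stay right of the 2-fold line at 1 wherever they have a value (Thrsp has none under the filter for all 8 arrays), Fasn and Scd2 cross it with normexp, and Elovl6 reaches 0.01 with median scaling.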

How the data were processed

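Liver RNA of 4 groups was measured on 8 arrays, 2 per group. Per the labels' protocols, Trizol extracts of total RNA (200 ng) were labelled with Cy3, and per the design text the 2 arrays of a sample are technical duplicates. Per the file headers, the scanner output came from Agilent Feature Extraction 10.7.3.1 and holds, per spot, a linear processed intensity (background subtracted by the software), the median signal, the local background and quality flags. The 8 arrays lay on 1 slide and were read in 1 scan. The duplicates of a group correlated with r between 0.992 and 0.997 over tested genes, with an SD of their log2 difference of 0.24 to 0.43, widest in WT Ad.

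From these, log2 processed intensity minus the array's 75th percentile was computed over non-control spots, 92 to 188 outlier-flagged spots per array were set to missing, and spots of a probe were averaged. No spot was saturated. Accessions were matched without versions to the RefSeq gene table of GRCm38.p6, which named 26756 probes and left 28925 unnamed. That table gave names and chromosomes only, since the headers name another build. A gene was represented by its tested probe with the highest mean. Other probes come from the same fit over all 28815 tested probes. Differences were fitted in R 4.3.3 with limma 3.58.1 (lmFit, eBayes with intensity trend, 4 groups in 1 fit) and adjusted by Benjamini-Hochberg over all genes tested. Calls required both an adjusted p below 0.05 and a 2-fold difference. The fit was tested on simulated data. Tables and promoter searches used Python 3.11.15 with pandas 2.3.3 and numpy 2.4.6.

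Where a gene was dim on both arrays of a group, the brighter mean was set against the higher of the dim signal and the lowest signal well above background on each array, given as "at least N-fold". The mean signal was not among the scanner columns, so the normexp alternative, with an offset of 50, used the median signal. The deposited value table of the series is a linear intensity whose preparation and normalization are not given in the sources used here. Its columns had a median of 18.1 and correlated on the log2 scale with processed intensity at r of 0.993 to 1.00. It was an alternative only.

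Named genes were the 10 members with every probe, Btg2, genes of 6 pathway lists called in a knockout comparison, the 3 largest stage differences each way per list, and the 5 genes nearest to Srebf1. Uncalled list genes given with values (Insig1, Insig2, Scap, Srebf2, Nr1h3, Mlxipl, Fads1, Mid1ip1), and the marker genes named, were chosen after their values were seen. Members, lists and markers were chosen with earlier results of these data known. Promoter windows are RefSeq's, from GRCm38.p6. One gene of the carbon and NADPH supply list is not reported here, and the list was counted without it.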

Additional observations from a re-analysis of the deposited data

Results flagged for a closer look

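For 4 of the 10 genes the knockout difference itself differed between adult and fetal liver, tested in limma as the adult difference minus the fetal one. Srebf1 stood at 2.32 ± 0.10, from an adult difference of 2.40 and a fetal one of 0.07. Scd2 stood at 2.02 ± 0.05, from 1.94 in adult and -0.08 in fetal liver, and at 1.05 with normexp background correction, still past both thresholds. Scd1 stood at 1.53 ± 0.04, from 1.46 and -0.07. Acacb stood at -1.48 ± 0.08, from -0.88 in adult and 0.59 in fetal liver, the opposite way. The value of Acacb was -1.13 when its 2 probes were averaged and then no longer passed the adjusted p threshold. Each value compares 4 RNA samples, 1 per group, so the spread between animals is not in it.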

How the results depend on the processing

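The member values were recomputed under 19 other settings, 909 values in all. Of these, 875 kept their direction and stayed called or uncalled as before. Of the others 26 changed sign, 5 lost and 3 gained a call. A call needs both thresholds, so a value under 2-fold counts as kept even where its adjusted p crossed 0.05. The adjusted p did cross it, under other settings, for Acaca, Acly and Acacb in adult and for Acacb and Me1 in fetal knockout against wild type. In adult knockout against wild type, normexp took Fasn to 0.75 and Scd2 to 0.88, so 3 members were called, and median scaling took Elovl6 to 0.0063. In the wild-type stage comparison Acaca turned to -0.056 with normexp, -0.14 with quantile normalization, the detected-probe percentile and the deposited value table, and -0.41 with median scaling. There, median scaling gave Srebf1 -0.66, Fasn -0.42 and Elovl6 -0.33, the detected-probe percentile gave -0.39, -0.15 and -0.055, and the mean of both Acly probes gave 0.16. In the knockout stage comparison Fasn fell to 0.92 with normexp and 0.72 with median scaling, Acly turned to -0.063 with quantile normalization and the value table and to -0.20 with median scaling, and Elovl6 to -0.26 with median scaling. The fetal knockout difference of Acly turned to -0.018 with normexp, -0.046 with quantile normalization, -0.0045 with the detected-probe percentile and -0.044 with the value table. The adult minus fetal knockout difference of Elovl6 turned to 0.076 with normexp, 0.029 with quantile normalization and the value table, and 0.067 and 0.069 with median and detected-probe scaling. That of Acacb was -1.13 with probes averaged. That of Fasn passed 2-fold with detected-probe scaling (1.15), without WT Ad replicate 2 (1.04) and without WT Fetal replicate 2 (1.05). The causes of these changes were not tested.

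Counts of called genes depended on the thresholds. With the adjusted p alone, 10 members were called in adult knockout against wild type, 2 in fetal, 8 in the wild-type stage comparison and 9 for the adult minus fetal knockout difference. Over all genes these counts were 8083, 3205, 12677 and 7545, and 12588 in the knockout stage comparison. Normexp gave 353 genes in adult, 67 in fetal and 471 for the difference of differences. The filter for all 8 arrays gave 501, 26, 5327, 5139 and 696, and dropped Thrsp. Leaving out each array in turn gave 1065 to 1450 genes in adult, 189 to 303 in fetal, 7898 to 8118 and 7661 to 7818 for the wild-type and knockout stages and 1315 to 1731 for the difference of differences, and 5, 0, 5, 7 and 5 to 6 members. The member counts for the difference of differences (5 as computed, 9 with the adjusted p alone) include Thrsp, whose fetal signal was at background, and without it 4 of 9 were called. Higher against lower calls in adult were 722 and 368 as reported, 1058 and 299 with median scaling, 914 and 251 with the detected-probe percentile, 781 and 669 without WT Ad replicate 1, and 3310 and 4773 with the adjusted p alone. In fetal they were 73 and 208, against 1976 and 1229 with the adjusted p alone, 28 and 39 with normexp and 12 and 14 with the filter for all 8 arrays. For the wild-type stages they were 3991 and 4024, against 2508 and 6353 with median scaling, 2973 and 5372 with detected-probe scaling, 7486 and 4005 with no filter and 3345 and 1982 with the filter for all 8 arrays. For the knockout stages they were 3762 and 4009, against 2632 and 5815 with median scaling, 6775 and 4006 with no filter and 3072 and 2067 with the filter for all 8 arrays. For the difference of differences they were 879 and 542, against 1093 and 389 with quantile, 821 and 233 with median, 1192 and 336 with detected-probe scaling, 1078 and 384 with the value table and 3037 and 4508 with the adjusted p alone.

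The replicate number of an array is also its row on the slide. Each group lay in a slide column of its own, so differences between groups cannot be told apart from differences between columns. Across groups, arrays of a row deviated from their group means with correlations of -0.14 to 0.08. Each array had been scaled first, so a shift common to all genes of a row could not show. With the row as a replicate block, 1087 genes were called in adult and 273 in fetal knockout, 8017 and 7768 for the stages and 1420 for the difference of differences, and no member's call changed. Dim signal limits Thrsp and the dimmer probe of Acacb in fetal liver, and the dimmer probes of Acaca.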
